A study of Homo sapiens with 8 samples.

Results

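This account describes 211 long intergenic noncoding RNAs (LINC RNAs) in A375 cells with and without tumor necrosis factor (TNF). They were selected on their level: each is a row of the count table whose symbol is LINC followed by digits and whose mean over the 8 libraries was at least 0.5 CPM (read counts scaled to a common library size). Of the 60710 genes in the table, 2135 carried such a symbol. Among these, 1076 had 0 counts in every library and 848 were above 0 but under the minimum. The 3 members nearest the minimum were LINC01686 at 0.510 CPM, LINC01550 at 0.513 CPM and LINC00652 at 0.513 CPM. Just outside it lay LINC00525 at 0.473 CPM, LINC01554 at 0.464 CPM and LINC02832 at 0.462 CPM. Because both groups entered that mean, 18 members were under 0.5 CPM in the NT mean alone and 8 in the TNF mean alone, and a member of this kind had to differ between the groups.

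A375 is a human melanoma cell line. Cells were left untreated (NT) or received recombinant human TNF at 50 ng/mL, and polyadenylated RNA was sequenced 24 hours later. Each group held 4 libraries from 4 independent experiments on this 1 cell line, and both groups shared the same medium with serum. The comparison asks how TNF changes the transcriptome of a melanoma cell.

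Long intergenic noncoding RNAs are transcripts made and often spliced like messenger RNAs, but without a recognized protein product. Many are low in abundance and vary strongly between cell types. Some act in the nucleus near the site where they are made, others bind proteins or microRNAs elsewhere, and for most no function is known. TNF is a cytokine that activates the transcription factors NF-kB and AP-1, and in melanoma cells it is studied for its part in inflammation and dedifferentiation. A LINC symbol marks a gene that was named by position and not by role, so the members are ordered here by size of change and by the genes around them.

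Total counts ran from 30989787 to 44373296 per library, and the summed members took 0.0939% to 0.121% of them. All 8 genes examined as known TNF targets (NFKBIA, TNFAIP3, BIRC3, RELB, NFKB2, ICAM1, CXCL8 and CCL2) were higher with TNF, with log2 fold changes of 2.73 to 7.90. The melanocyte lineage factor SOX10 was at 1025 CPM in NT and 1177 CPM in TNF, and MITF at 21 and 22 CPM, whereas the pigment genes PMEL, MLANA, TYR and DCT did not exceed 0.645 CPM in any library. The leukocyte markers PTPRC, CD3E and CD14 did not exceed 0.273 CPM. Of other markers, PECAM1 and KRT5 were higher with TNF, at means of 2.30 and 1.61 CPM, and KRT14 went from 18.3 to 8.39 CPM, the glial and melanocyte gene S100B from 17.3 to 3.05 CPM, and EPCAM and CDH5 stayed under 0.214 CPM. Of the fibroblast markers, DCN was higher with TNF (0.549 to 1.48 CPM), whereas PDGFRB (12.95 and 13.97 CPM) and COL1A1 (1.78 and 1.40 CPM) did not pass the test. The part of these genes in the results was not tested. Ribosomal RNA, 7SK and 7SL took 0.520%, 0.490% and 0.417% of counts in NT replicate 2, NT replicate 4 and TNF replicate 4, against 0.0690% to 0.107% in the other libraries. NT replicates 2 and 4 and TNF replicate 4 are called rich in ribosomal RNA below. This is only a label for the higher sum, which was a small share of counts and was not split by RNA class.

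Promoter sequences illustrate the members that moved. Each runs 5′ to 3′ on the strand of its gene, from 250 bases before to 50 bases after the gene start in RefSeq (GRCh38.p14), and capitals mark matches to an NF-kB consensus, to the AP-1 element TGANTCA or to an E-box of the type bound by MITF (CACGTG or CATGTG), on either strand. The first 2 belong to the largest rises, LINC02015 (chr3:177816615-177816914, plus strand) and LINC02251 (chr15:98002788-98003087, plus strand). LINC00189 (chr21:29193244-29193543, plus strand) was the only one of the 32 higher members with a promoter entry that held an NF-kB match. LINC00702 (chr10:4243863-4244162, minus strand) and LINC01363 (chr1:167195756-167196055, minus strand) held an AP-1 match that overlapped an E-box. LINC00189 and LINC00702 were chosen after their values were seen.
LINC02015: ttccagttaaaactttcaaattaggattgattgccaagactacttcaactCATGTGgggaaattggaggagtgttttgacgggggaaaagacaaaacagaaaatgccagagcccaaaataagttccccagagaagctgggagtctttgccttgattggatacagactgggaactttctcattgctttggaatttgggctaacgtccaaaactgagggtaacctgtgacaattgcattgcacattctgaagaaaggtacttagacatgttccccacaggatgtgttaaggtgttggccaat
LINC02251: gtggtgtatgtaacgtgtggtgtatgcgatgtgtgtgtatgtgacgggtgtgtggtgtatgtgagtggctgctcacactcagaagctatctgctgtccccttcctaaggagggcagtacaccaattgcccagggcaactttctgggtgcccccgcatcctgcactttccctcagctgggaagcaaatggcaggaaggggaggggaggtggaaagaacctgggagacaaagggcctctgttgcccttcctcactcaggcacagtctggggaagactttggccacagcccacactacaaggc
LINC00189: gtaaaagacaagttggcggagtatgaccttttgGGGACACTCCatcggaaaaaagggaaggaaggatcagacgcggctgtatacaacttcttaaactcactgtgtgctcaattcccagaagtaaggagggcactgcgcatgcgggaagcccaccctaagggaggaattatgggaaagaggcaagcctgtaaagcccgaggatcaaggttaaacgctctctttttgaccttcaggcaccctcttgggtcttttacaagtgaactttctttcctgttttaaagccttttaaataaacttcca
LINC00702: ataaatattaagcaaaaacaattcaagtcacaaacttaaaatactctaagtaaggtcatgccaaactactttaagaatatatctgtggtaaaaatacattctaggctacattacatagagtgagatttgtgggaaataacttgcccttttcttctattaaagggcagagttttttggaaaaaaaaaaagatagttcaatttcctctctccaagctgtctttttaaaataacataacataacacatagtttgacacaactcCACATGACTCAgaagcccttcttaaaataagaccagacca
LINC01363: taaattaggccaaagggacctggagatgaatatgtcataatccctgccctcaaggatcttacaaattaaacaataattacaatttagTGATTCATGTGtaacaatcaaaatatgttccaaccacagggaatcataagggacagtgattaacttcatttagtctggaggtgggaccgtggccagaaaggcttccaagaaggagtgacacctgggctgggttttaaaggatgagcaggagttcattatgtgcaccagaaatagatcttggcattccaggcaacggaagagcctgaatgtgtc
The match in LINC02015 began 200 bases before the gene start and that in LINC00189 217 bases before it. In LINC00702 both matches lay after the gene start, the E-box from base 10 and the AP-1 element from base 14. In LINC01363 the AP-1 element began 163 and the E-box 158 bases before the start. The window of LINC02251 held none of these letters, which says nothing about whether a factor binds there.

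Promoters were found for 135 of the 211 members. The NF-kB consensus occurred in 6 of them (4.44%), against 11.3% of all 35116 promoters of the same length. The AP-1 element occurred in 19 (14.1%, against 7.71%), the E-box in 29 (21.5%, against 17.6%) and the TATA box TATAAA in 13 (9.63%, against 11.5%). Of the 32 promoters of members that rose, described next, 1 held the NF-kB consensus, 5 the AP-1 element, 2 the E-box and 4 the TATA box. Of the 5 promoters of members that fell, 0 held the NF-kB consensus, 1 the AP-1 element, 2 the E-box and 1 the TATA box. These shares describe letters in a window and were not tested.

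With TNF, 43 of the 211 members rose (20.4%) and 8 fell (3.79%), at an adjusted p under 0.05 in the quasi-likelihood test of edgeR, adjusted by the Benjamini-Hochberg (BH) method over 16186 genes. Of all genes tested, 14.5% rose and 9.9% fell. Beyond a log2 fold change of 1 in either direction, 32 members were higher and 5 lower, where 5.62% of all genes were higher and 2.39% lower. The median log2 fold change was 0.04 over the members and -0.0035 over all genes. With upper-quartile factors these medians were -0.013 and -0.0616, and with library totals as the scale -0.037 and -0.0863. The member median was -0.0117 without NT replicate 4 and positive in the other fits. In these bulk libraries, a smaller share of cells with a transcript and less transcript in each cell cannot be told apart. Of the members that rose, 12 had an NT mean under the minimum, and of those that fell, 2 had a TNF mean under it. Without the 26 members that reached the minimum through 1 group alone, 31 of 185 rose (16.8%) and 6 fell (3.24%). Of these 185, 21 rose and 3 fell beyond a log2 fold change of 1.

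The replicate number stands for an experiment date that NT and TNF libraries share, and the number of falls depended on whether it entered the fit. With the replicate as a block, 54 members rose and 21 fell, with the 43 and the 8 among them. Of all genes, 3451 (21.3%) rose and 2946 (18.2%) fell. With library totals alone as the scale, 37 members rose and 13 fell, and 1925 and 2514 of all genes, so that the share of calls that were rises was 74.0% among the members in place of 84.3%, and 43.4% among all genes in place of 59.4%. With upper-quartile factors these shares were 78.0% and 48.2%.

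**Figure D1:**
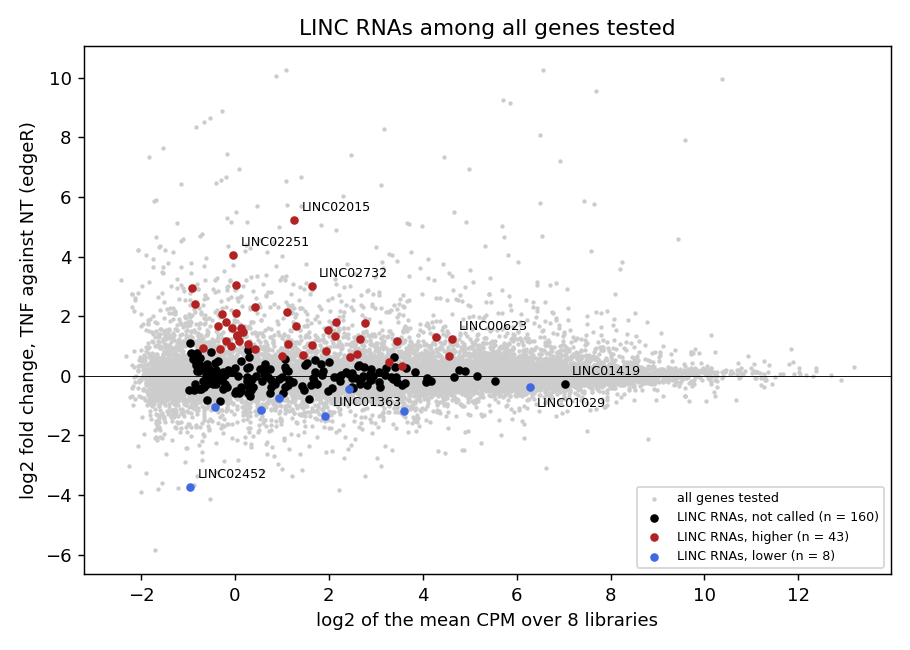
Log2 fold change (TNF against NT, edgeR) of all 16186 genes tested (grey) and of the 211 LINC RNAs against the log2 of the mean CPM over 8 libraries. Red points mark the 43 that rose and blue points the 8 that fell; LINC02015 and LINC02452 lie at the upper and lower ends of the LINC RNAs.

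Of the 1761 other long noncoding RNAs that were tested, which carry no such symbol, 10.4% rose and 3.75% fell. Of the 13381 protein-coding genes tested, 15.4% rose and 11.2% fell. The shares also stood as follows by level. Between 1 and 5 CPM, 22 of 91 members (24.2%) and 13.1% of all genes rose, and 3 members (3.30%) and 10.6% of all genes fell. At 5 CPM or more, 10 of 56 members (17.9%) and 15.8% of all genes rose, and 3 members (5.36%) and 10.9% of all genes fell. Under 1 CPM, 17.2% of 64 members and 10.3% of all genes rose, and 2 members (3.125%) and 4.81% of all genes fell. There the 2 sets differ in level, because only the members had the minimum of 0.5 CPM. Their median was 0.682 CPM, against 0.517 CPM for all genes. Members that reached the minimum through TNF alone are also counted, such as LINC01550 under 1 CPM and LINC02015 between 1 and 5 CPM. The 47 LINC rows that were tested but lay under the minimum had 1 rise and 2 falls.

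**Figure D2:**
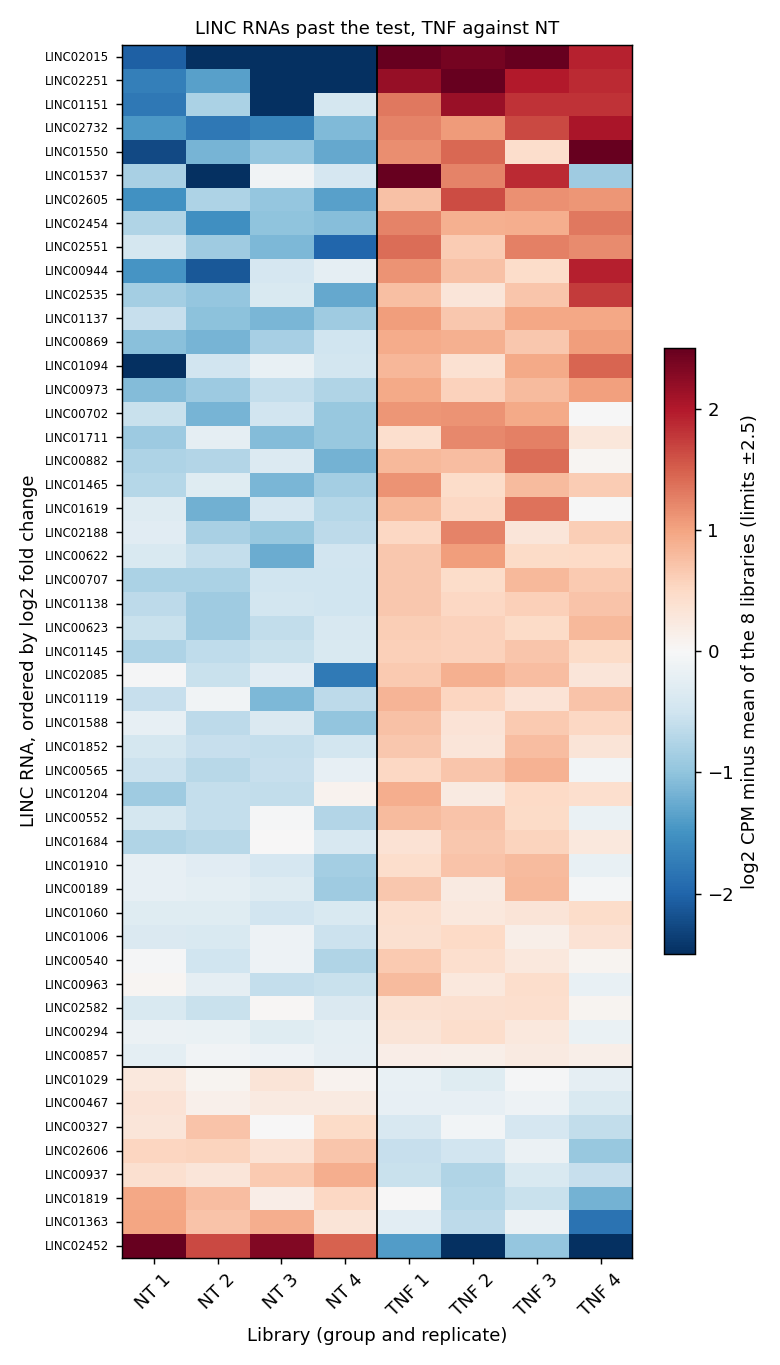
Log2 CPM of the 51 LINC RNAs past the test, 43 higher and 8 lower with TNF, in each of the 8 libraries, after subtraction of the mean of that RNA over the 8 libraries. Red is above and blue below the mean, with colors limited to ±2.5; rows are ordered by log2 fold change, from LINC02015 to LINC02452.

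Of the 10 largest rises, LINC02015, LINC02251, LINC01151, LINC02605, LINC01550, LINC01537, LINC02551 and LINC00944 had NT means under the 0.5 CPM minimum. They entered the set through TNF alone, so the selection itself required a TNF mean above the NT mean. LINC02015 (chr3:177816865-177899224) showed the largest rise. Its level was 0.171, 0.0820, 0.126 and 0.0952 CPM in NT replicates 1 to 4 and 6.46, 3.71, 5.86 and 2.69 CPM in TNF replicates 1 to 4. It was close to absent without TNF, with 3 to 8 counts per library, and every TNF library lay above every NT library. The log2 fold change was 5.23 (SE 0.38, n = 4 + 4, edgeR BH-adjusted p = 5.9e-06). LINC02251 (chr15:98003038-98087384) went from 0.128, 0.164, 0.0630 and 0.0635 CPM in NT to 1.89, 2.33, 1.64 and 1.52 CPM in TNF. The groups did not overlap, NT held 2 to 6 counts per library, and the log2 fold change was 4.05 (SE 0.33, edgeR BH-adjusted p = 1.2e-05). The nearest protein-coding gene of LINC02251 is ARRDC4, an arrestin-domain protein, 29205 bases away, whose log2 fold change was 0.09 (edgeR BH-adjusted p = 0.867). That of LINC02015 is KCNMB2, a potassium channel subunit 373708 bases away, which was too low to be tested.

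LINC02732 (chr11:110355130-110407613) was measured at 0.705, 0.546, 0.598 and 0.889 CPM in NT and 4.51, 3.96, 5.93 and 7.77 CPM in TNF. The lowest TNF library lay above the highest NT library, and the log2 fold change was 3.01 (SE 0.26, edgeR BH-adjusted p = 1.7e-05). LINC02454 (chr12:65589111-65614169) went from 0.983, 0.574, 0.818 and 0.793 CPM to 3.90, 3.04, 3.10 and 4.11 CPM. Again the groups were apart, with a log2 fold change of 2.15 (SE 0.22, edgeR BH-adjusted p = 4.6e-05). LINC01151 and LINC02605, both on chromosome 8, rose by log2 fold changes of 3.06 and 2.31. LINC01151 had 0.150, 0.300, 0.0315 and 0.381 CPM in NT and 1.29, 2.33, 1.81 and 1.81 CPM in TNF. LINC02605 had 0.342, 0.574, 0.504 and 0.381 CPM in NT and 1.64, 3.04, 2.15 and 2.10 CPM in TNF. Neither showed overlap between the groups, and their edgeR BH-adjusted p-values were 0.000592 and 0.000135.

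**Figure D3:**
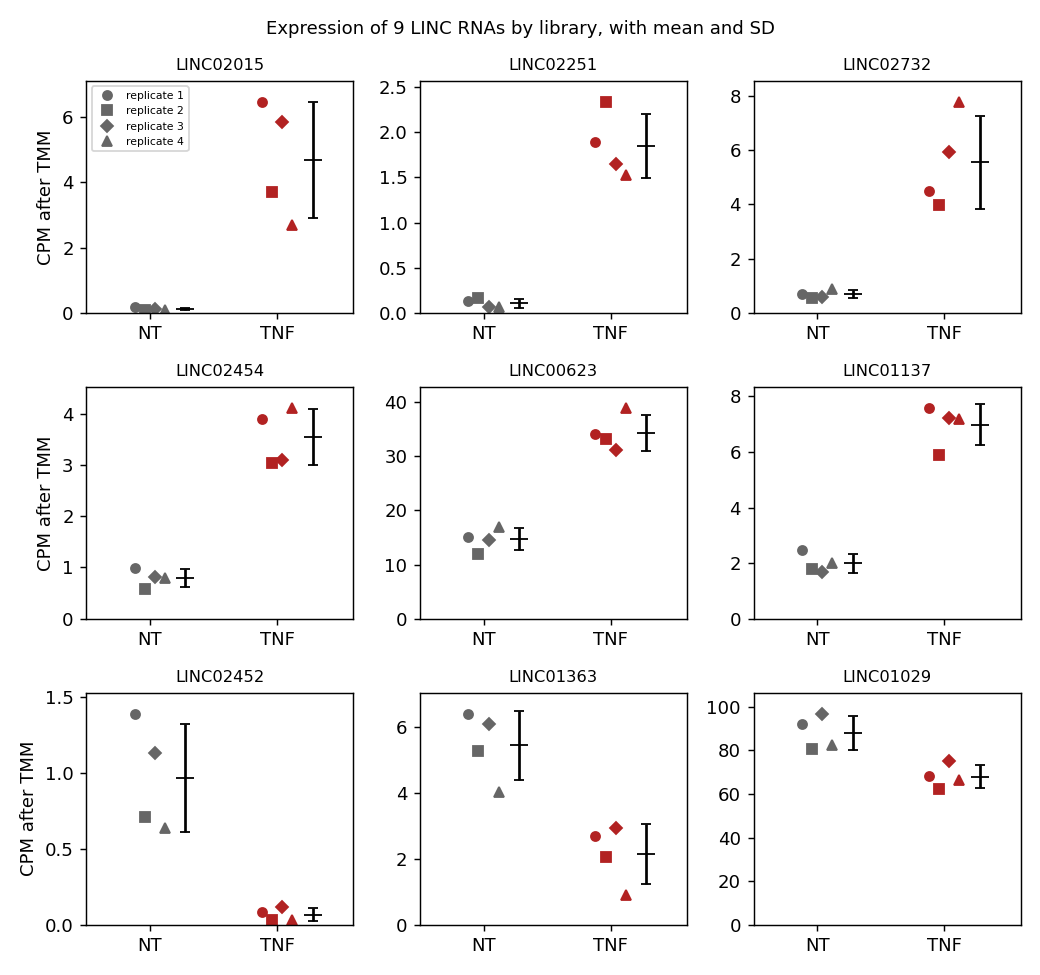
CPM of 9 LINC RNAs in each library, NT in grey and TNF in red, with the marker shape giving the replicate and the bar the mean and SD of 4 libraries. The top 2 rows hold 6 RNAs that rose, from LINC02015 to LINC01137, and the bottom row 3 that fell; in all 9 panels the groups are apart, and the y axes start at 0 and differ in range.

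The other members among the 10 largest rises were low in NT. LINC01550, LINC02551 and LINC00944 had NT means of 0.121, 0.376 and 0.325 CPM and TNF means of 0.945, 1.67 and 1.34 CPM, with log2 fold changes of 2.95, 2.11 and 2.06. Their groups did not overlap. LINC01537 was the weakest of the 10: NT libraries had 0.171, 0.0273, 0.283 and 0.222 CPM and TNF libraries 1.75, 0.706, 1.09 and 0.162 CPM. TNF replicate 4 lay inside the NT range while the other TNF libraries were above it. The log2 fold change was 2.42 (SE 0.68, edgeR BH-adjusted p = 0.0263), and the adjusted p was 0.0677 without NT replicate 1, 0.0659 without NT replicate 2 and 0.0746 with voom. Without TNF replicate 1 or 3 it fell under the filter on counts and was not tested.

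LINC02452 (chr12:96160692-96172126) showed the largest fall. Its level was 1.39, 0.710, 1.13 and 0.635 CPM in NT and 0.0861, 0.0307, 0.116 and 0.0324 CPM in TNF, where it had 1 to 5 counts per library. All TNF libraries were below all NT libraries. It fell by 3.74 on the log2 scale (SE 0.46, edgeR BH-adjusted p = 0.000184). Its TNF mean, like that of LINC02606 below, was under the 0.5 CPM minimum, so both entered the set through NT alone. LINC01363 (chr1:167175363-167195792) went from 6.39, 5.27, 6.07 and 4.03 CPM to 2.70, 2.06, 2.92 and 0.906 CPM. The 4th experiment was the lowest of each group, and the groups did not overlap. It fell by 1.33 on the log2 scale (SE 0.31, edgeR BH-adjusted p = 0.00893). LINC00937 fell by 1.14 (SE 0.21, edgeR BH-adjusted p = 0.00274), from a mean of 2.03 ± 0.395 CPM to 0.916 ± 0.0998 CPM (SD, n = 4).

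LINC01819 (chr2:42972255-43040662) was well above the detection limit in both groups, with 21.3, 18.7, 12.2 and 15.7 CPM in NT and 11.1, 6.63, 7.43 and 4.82 CPM in TNF. The groups were separate by a narrow margin, and it fell by 1.18 on the log2 scale (SE 0.24, edgeR BH-adjusted p = 0.00544). LINC02606 fell by 1.03 (SE 0.25, edgeR BH-adjusted p = 0.0116), from 1.00 ± 0.0940 to 0.483 ± 0.111 CPM (SD, n = 4). Both calls were lost without the 3 libraries rich in ribosomal RNA, where, with 5 libraries, the log2 fold changes were -1.01 and -0.84 and the adjusted p-values 0.0529 and 0.116. LINC00327 fell by 0.75, from a mean of 2.40 to 1.42 CPM (edgeR BH-adjusted p = 0.0245). Its adjusted p was 0.0833 without NT replicate 2, 0.0510 without NT replicate 4, 0.0577 without TNF replicate 1 and 0.0599 without TNF replicate 3. It was 0.069 without both libraries of the 4th experiment. Without the 3 libraries rich in ribosomal RNA it was 0.250, and the log2 fold change was -0.45.

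The 2 smallest falls concerned better measured members. LINC01029 (chr18:77970637-77993731) had 92.3, 80.8, 96.8 and 82.3 CPM in NT and 68.0, 62.3, 75.1 and 66.3 CPM in TNF. Each TNF library was below each NT library, and it fell by 0.37 on the log2 scale (SE 0.09, edgeR BH-adjusted p = 0.00874). LINC00467, which has been studied in several cancers, had 6.71, 5.76, 6.17 and 6.22 CPM in NT and 4.62, 4.58, 4.89 and 4.08 CPM in TNF. The groups did not overlap, and it fell by 0.45 (SE 0.12, edgeR BH-adjusted p = 0.0203), a call that was lost without NT replicate 1 (adjusted p = 0.0609), without the 3 libraries rich in ribosomal RNA (0.0717) and with no filter on low counts (0.0601).

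Positions and neighbors came from GENCODE release 44. The nearest protein-coding gene could be tested for 32 of the 43 members that rose: 11 of these genes rose (34.4%), 1 fell and 20 did not pass the test. For the 8 members that fell, 4 could be tested, of which 2 rose, 1 fell and 1 did not pass. For the 160 members that passed in neither direction, 18 of 115 tested neighbors rose (15.7%) and 9 fell. Of all protein-coding genes tested, 15.4% rose and 11.2% fell. Some members share exonic bases with their neighbor, such as LINC01619 with BTG1, as described below, and such pairs are counted here. Over the 151 members with a tested neighbor, the log2 fold changes of member and neighbor had a Pearson correlation of 0.21 and a Spearman correlation of 0.32. All points share the same 8 libraries, and this is a description across genes, which are not independent replicates.

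**Figure D4:**
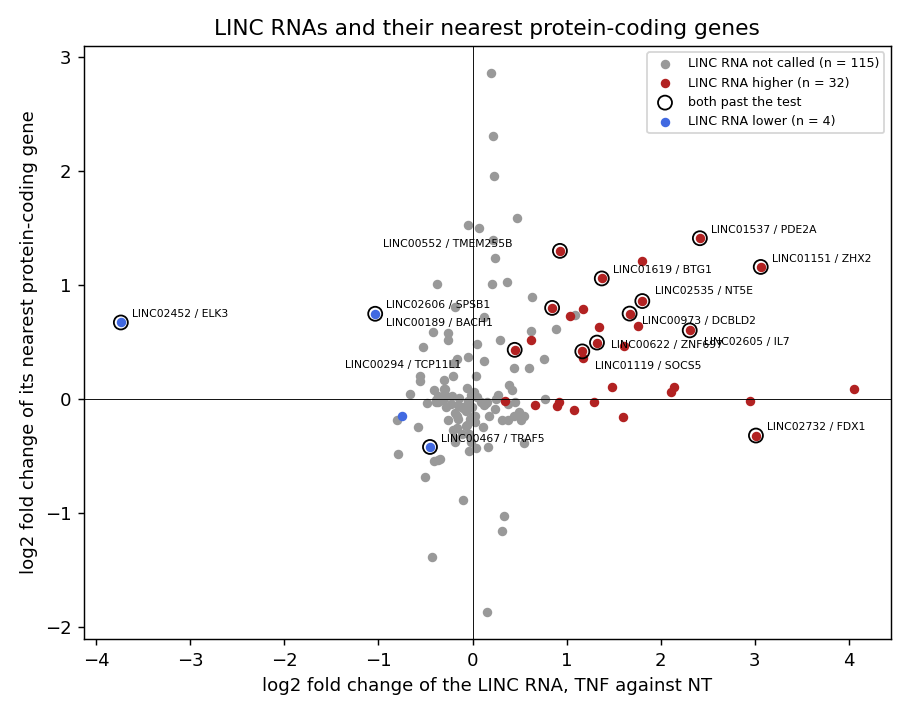
Log2 fold change (TNF against NT) of each LINC RNA, x axis, and of its nearest protein-coding gene, y axis, for the 151 pairs in which both were tested. Rings mark the 15 pairs in which both passed the test; 11 of them lie in the upper right and LINC02732 with FDX1 in the lower right.

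Among the neighbors of the largest changes, those that passed the test are described first. LINC02605 lies 29784 bases from IL7, a lymphocyte cytokine, which rose from 3.35 to 5.09 CPM on average (log2 fold change 0.60, edgeR BH-adjusted p = 0.00843). LINC01151 lies 47851 bases from ZHX2, a zinc finger and homeobox repressor, which went from 5.56 to 12.4 CPM (1.16, edgeR BH-adjusted p = 0.000228). LINC01537 lies 2912 bases from PDE2A, a cyclic nucleotide phosphodiesterase, which went from 2.31 to 6.20 CPM (1.41, edgeR BH-adjusted p = 0.000946). LINC02732 and its neighbor differed in sign: FDX1, a mitochondrial ferredoxin 22335 bases away, fell by 0.32 on the log2 scale (edgeR BH-adjusted p = 0.0158). Among the members that fell, LINC02452 lies 22249 bases from ELK3, an ETS family transcription factor that rose from 111 to 176 CPM (0.67, edgeR BH-adjusted p = 4e-05). LINC02606 lies 55562 bases from SPSB1, a substrate adaptor of a ubiquitin ligase, which rose from 17.9 to 30.2 CPM (0.75, edgeR BH-adjusted p = 0.000736). LINC00467 and TRAF5, an adaptor of TNF receptor family members 7790 bases away, both fell, TRAF5 from 12.5 to 9.30 CPM (fell by 0.42, edgeR BH-adjusted p = 0.0159). Other neighbors did not pass: SNX19, only 689 bases from LINC02551, was at 0.06 (edgeR BH-adjusted p = 0.728), MSRB3 near LINC02454 at 0.11 (0.421), VRK1 near LINC01550 at -0.02 (0.911) and ARRDC4 as given above.

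The members of the next paragraphs were picked after their values were seen, for their place in the genome. LINC01137, named ZC3H12A-DT in GENCODE release 44, starts 148 bases from ZC3H12A on the opposite strand. ZC3H12A encodes Regnase-1, an RNase that degrades cytokine messenger RNAs. LINC01137 had 2.48, 1.80, 1.67 and 2.0 CPM in NT and 7.58, 5.89, 7.23 and 7.18 CPM in TNF. The groups were far apart relative to their spread, and the log2 fold change was 1.80 (SE 0.17, edgeR BH-adjusted p = 2.5e-05). ZC3H12A itself went from 2.54 to 5.90 CPM on average, with a log2 fold change of 1.21 (SE 0.46) that did not pass the test (edgeR BH-adjusted p = 0.0823). Of the 13 members that start within 2000 bases of a coding gene on the opposite strand, LINC01137 and LINC00857 rose, the latter by 0.34 beside ANXA11. Of all genes tested, 14.5% rose.

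LINC02085 is named RDUR in release 44, after its increase in the antiviral response through RIG-I. It lies 79837 bases from NFKBIZ, an atypical IkB protein. It had 0.748, 0.519, 0.629 and 0.222 CPM in NT and 1.21, 1.41, 1.30 and 0.938 CPM in TNF, with NT replicate 4 the lowest of all and no overlap between groups. The log2 fold change was 1.17 (SE 0.33, edgeR BH-adjusted p = 0.0245), and 0.79 for NFKBIZ, which did not pass (edgeR BH-adjusted p = 0.175). The adjusted p of LINC02085 was 0.0673 without NT replicate 2, 0.0525 without TNF replicate 1, 0.0723 without TNF replicate 2, 0.0571 without TNF replicate 3 and 0.0569 without the 3 libraries rich in ribosomal RNA. Its exons share 1884 bases on the same strand with another annotated gene, so its reads may be split.

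LINC02535 and NT5E, the gene of the ectonucleotidase CD73, both rose. The NT mean of LINC02535 was under the minimum, so it entered the set through TNF alone. LINC02535 had 0.385, 0.355, 0.535 and 0.286 CPM in NT and 1.18, 0.860, 1.14 and 2.33 CPM in TNF, with no overlap (log2 fold change 1.80, SE 0.36, edgeR BH-adjusted p = 0.00414), and NT5E, 59398 bases away, went from 58.3 to 106 CPM (0.86, edgeR BH-adjusted p = 2e-05). LINC00973 went from 0.983, 1.12, 1.39 and 1.24 CPM to 4.02, 3.13, 3.61 and 4.24 CPM. It was higher in each TNF library than in each NT library (1.67, SE 0.18, edgeR BH-adjusted p = 8.4e-05), and so on average was DCBLD2, a membrane receptor gene 79363 bases away (0.75, edgeR BH-adjusted p = 0.000408). LINC00622 rose by a log2 fold change of 1.32 and ZNF697, 20106 bases away, by 0.50.

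Some pairs overlap, and there reads of the neighbor can reach the member. LINC01619 shares 503 exonic bases on the same strand with BTG1, an antiproliferative gene that went from 115 to 240 CPM (log2 fold change 1.06). LINC01619 itself had 0.705, 0.383, 0.661 and 0.539 CPM in NT and 1.55, 1.26, 2.25 and 0.874 CPM in TNF, with no overlap (1.37, SE 0.33, edgeR BH-adjusted p = 0.0110). LINC00189 (chr21:29193480-29288205) starts 591 bases from BACH1, a repressor of heme and antioxidant genes, and shares 302 exonic bases with it. It had 3.12, 3.0, 2.86 and 1.94 CPM in NT and 5.71, 4.21, 6.28 and 3.46 CPM in TNF (0.85, SE 0.23, edgeR BH-adjusted p = 0.0194), and BACH1 went from 27.0 to 47.1 CPM (0.80). The groups of LINC00189 did not overlap, and its adjusted p was 0.0575 without TNF replicate 1 and 0.0584 without TNF replicate 3. How much of either rise came from shared reads was not tested. In all, 30 members share exonic bases with a gene on the same strand and 77 with a gene on the opposite strand, and 26 have a near-identical copy elsewhere in the transcript set. Of the 109 members free of all 3, 23 rose and 7 fell, where 14.5% of all genes rose and 9.9% fell.

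LINC00623, LINC01138, LINC00869 and LINC01145 lie in the duplicated region around the centromere of chromosome 1 and rose together by log2 fold changes of 1.23, 1.24, 1.76 and 1.18. LINC00623 had 15.1, 12.0, 14.6 and 16.9 CPM in NT and 34.1, 33.2, 31.1 and 38.9 CPM in TNF. The lowest TNF library was far above the highest NT library (SE 0.11, edgeR BH-adjusted p = 2.6e-05). LINC00869 had 2.73, 2.54, 3.18 and 4.0 CPM in NT and 10.8, 10.4, 9.03 and 11.8 CPM in TNF, again with a wide gap (SE 0.16, edgeR BH-adjusted p = 2.6e-05). LINC01145 matches transcripts of LINC00623, LINC00869, LINC01138 and others at 95% identity or more, and its annotated transcript has 143 bases. Reads may have been shared out among these genes, so they cannot be counted as 4 separate changes. Without all members that have a near-identical copy, 37 of 185 rose and 8 fell. The shares of rises and falls over all genes tested were 14.5% and 9.9%.

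LINC00707 was among the better expressed members that rose. It had 10.1, 10.1, 12.3 and 12.5 CPM in NT and 27.8, 24.1, 30.6 and 27.5 CPM in TNF. Every TNF library was above every NT library, with a log2 fold change of 1.29 (SE 0.11, edgeR BH-adjusted p = 1.5e-05). The nearest coding gene PRKCQ, a protein kinase C of lymphocytes 199248 bases away, had a log2 fold change of -0.03 (edgeR BH-adjusted p = 0.897). Exons of LINC00707 share 1208 bases with other noncoding genes on its strand.

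Levels between members were compared per length, as the mean CPM over 8 libraries per kilobase of the canonical transcript. LINC01419 was the highest at 85.4 CPM per kilobase, followed by LINC01145 at 76.2, LINC00665 at 47.7, LINC01029 at 39.5, LINC00623 at 29.5, LINC02210 at 29.2, LINC00680 at 20.1, LINC00221 at 19.99, LINC00963 at 18.8 and LINC00888 at 17.6. The value of LINC01145 rests on its short annotated transcript. LINC02210 with LINC00623, and LINC00680 with LINC00221, differed by less than the spread of their libraries. The same held for LINC00963 with LINC00680, LINC00221 and LINC00888, so the order among these is not settled. The median member was at 1.38 CPM per kilobase, the median protein-coding gene tested at 6.87 and the median other long noncoding RNA tested at 0.743. The members were selected on their level and the other genes were not, so these medians are not on equal terms. All LINC rows tested had a median of 0.903 CPM per kilobase, and those under the minimum 0.2855.

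Most of these abundant members did not pass the test. LINC01419 (chromosome 8) had 154, 128, 176 and 110 CPM in NT and 139, 99.6, 130 and 102 CPM in TNF, so that the groups overlapped (log2 fold change -0.28, SE 0.16, edgeR BH-adjusted p = 0.249). Within each of the 4 experiments the TNF library was the lower, and with the replicate block its adjusted p was 0.00654. LINC00665, studied in several cancers, had a log2 fold change of -0.16 (edgeR BH-adjusted p = 0.293), and LINC02210, LINC00680, LINC00221 and LINC00888 had values of 0.14, 0.01, 0.16 and 0.22 with adjusted p of 0.376, 0.973, 0.245 and 0.233. LINC00963 had 23.4, 19.3, 14.9 and 15.3 CPM in NT and 38.6, 27.1, 30.3 and 19.8 CPM in TNF. NT replicate 1 was above TNF replicate 4, and the log2 fold change of 0.67 (SE 0.20, edgeR BH-adjusted p = 0.0362) was no longer called in 10 of 18 other fits, in which the adjusted p ran up to 0.137; without 1 library it was 0.0700 (NT replicate 2), 0.0960 (NT replicate 3), 0.0929 (NT replicate 4), 0.103 (TNF replicate 1), 0.0664 (TNF replicate 2) and 0.0784 (TNF replicate 3).

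Among other LINC RNAs known from cancer cells, LINC00511 had a log2 fold change of -0.02 (SE 0.21, edgeR BH-adjusted p = 0.964), with 34.9, 41.0, 40.2 and 27.8 CPM in NT and 36.4, 36.9, 47.2 and 21.3 CPM in TNF. Both groups had their lowest value in replicate 4. LINC01116 had 5.79, 6.31, 5.98 and 5.81 CPM in NT and 7.06, 7.09, 7.39 and 8.06 CPM in TNF. Its groups did not overlap, but the log2 fold change of 0.31 (SE 0.11) missed the threshold (edgeR BH-adjusted p = 0.0630). It passed with DESeq2 (0.0398) and with the replicate block (0.0301). LINC00518, LINC00520 and LINC00941 lay under the minimum.

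Of the 160 members that passed in neither direction, 20 had an unadjusted p under 0.05, and their log2 fold changes ran from -0.84 to 1.09. The block added 11 rises and 13 falls among these 160. Over all genes it took the share of rises from 14.5% to 21.3% and that of falls from 9.9% to 18.2%. LINC01686, the member nearest the minimum, had the highest log2 fold change of these 160, at 1.09 (edgeR BH-adjusted p = 0.0654, 0.0345 with the block). Its level was 0.385, 0.410, 0.409 and 0.0952 CPM in NT and 0.804, 0.491, 0.834 and 0.679 CPM in TNF. NT replicate 4 stood far below the other NT libraries, and the groups did not overlap. All NT libraries of LINC01686 were under 0.5 CPM, so it entered the set through TNF alone. The selection itself thus required its TNF mean to lie above its NT mean. LINC01550, also near the minimum, rose as given above, and LINC00652 had a log2 fold change of -0.49 (edgeR BH-adjusted p = 0.447).

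The members summed to 1097, 1039, 1131 and 974.2 CPM in NT replicates 1 to 4 and to 1192, 1071, 1212 and 1013 CPM in TNF replicates 1 to 4. Replicate 4 was the lowest of each group and the groups overlapped, while within each of the 4 experiments the TNF library had the higher sum. As shares of all counts, without TMM, the members took 0.116%, 0.107%, 0.116% and 0.0981% in NT and 0.119%, 0.103%, 0.121% and 0.0939% in TNF, higher with TNF in experiments 1 and 3 and lower in experiments 2 and 4. The difference of the means was 61.7 CPM, with no test made, 18.4 CPM with upper-quartile factors and 0.761 CPM when scaled by library totals alone. LINC01419 made up 11.9% of the summed CPM and the 10 most abundant members 40.3%. The 4th experiment stood low across the members: 91 of 211 had their lowest NT value in NT replicate 4 and 112 their lowest TNF value in TNF replicate 4. Both libraries were rich in ribosomal RNA, as was NT replicate 2, in which 42 members had their lowest NT value, and the part of this in the levels was not tested. Without both libraries of the 4th experiment 44 members rose and 9 fell, where 15.2% of all genes rose and 11.5% fell. Without the 3 libraries rich in ribosomal RNA 35 rose and 7 fell, with 35 of the 43 and 4 of the 8 among them. In that fit 12.8% of all genes rose and 8.33% fell.

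In release 44, 203 members are classed as long noncoding RNA, which the choice by LINC symbol favors, and 8 otherwise, among them transcribed pseudogenes, and 11 carry another symbol, such as SWINGN for LINC00565, which was named for binding the SWI/SNF complex and rose by a log2 fold change of 1.03. LINC00565 was picked after its values were seen. Transcript structure did not enter the choice. The median canonical transcript of the members had 4 exons, 1711 bases and 46.9% GC, against 9 exons, 3393 bases and 48.4% GC in protein-coding genes tested, and 20 members had a single exon. The members that rose had a median of 3 exons and 1933 bases, and the others that did not pass 4 exons and 1653 bases. A coding gene was overlapped by 29 members and lay within 10000 bases of another 40, whereas 63 were more than 100000 bases from any. In each of the 8 pairs of members within 100000 bases of each other, at most 1 member passed the test.

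The calls of single members were checked in 18 other fits. Of the 43 rises, 30 were called in every fit that tested them, and of the 8 falls, 4 were (LINC02452, LINC01363, LINC00937 and LINC01029). The 13 rises lost in at least 1 fit were LINC01537, LINC01094, LINC02085, LINC01204, LINC00552, LINC01684, LINC01910, LINC00189, LINC01006, LINC00540, LINC00963, LINC00294 and LINC00857, with adjusted p-values up to 0.152. Of the 160 other members, 31 were called in at least 1 fit.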

How the data were processed

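RNA from 4 NT and 4 TNF cultures of A375 cells was extracted with a column kit and made into stranded polyadenylated libraries. The authors aligned reads with Bowtie2 to the GRCh38 transcriptome and deposited expected counts per gene from RSEM 1.2.25, not normalized. Read filters and the version of Bowtie2 are not stated in those sources. The table of the whole series was used, because the counts filed with each of the 4 NT samples repeat the NT column of another date; those filed with the 4 TNF samples repeat their own column. Groups came from the treatment label, and replicate numbers from the date in the title, which NT and TNF libraries share. Deviations from the group means, over 16186 genes, correlated at 0.35, 0.17, 0.24 and 0.46 within the 4 numbers. Between different numbers they ran from -0.40 to 0.23. Each NT library correlated most with the TNF library of its own number, so the numbers pair the libraries. The SEs and adjusted p-values given leave this pairing out, except where the block is named. Chi-square tests of counts between libraries of 1 group gave at least 12.2 per degree of freedom, so each library was kept as a replicate.

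Expected counts were rounded (a change of 0.000138% of all counts), filtered with filterByExpr (minimum count 10, minimum total 15) and tested with edgeR 4.0.16 in R 4.3.3, with TMM factors, the robust quasi-likelihood test without a block and Benjamini-Hochberg adjustment over all genes, at a threshold of 0.05. All 211 members passed the filter, and each had at least 143 counts in all. CPM values are after TMM, except in the selection, which used column totals. Alternatives were DESeq2 1.42.0, limma 3.58.1 voom, other scalings, filters, thresholds and minimums, the replicate block, and libraries left out; the leaving out of near-identical copies and of members under the minimum in 1 group was chosen after seeing the data. Scripts were tested on simulated data. Positions came from GENCODE release 44, which is not the release named in the study's methods; 60481 of 60710 gene IDs were found in it. Near-identical copies were matches of BLAST 2.17.0 at 95% identity over at least 50% of the canonical transcript. Promoters came from RefSeq, and those printed start within 50 bases of the GENCODE start. The fits and their SEs measure the spread between experiments, and counting error adds to it at low counts.

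The members and lists were chosen with earlier results of these data known. Members were named if they were among the 10 largest rises or falls past the test, the 10 highest levels (taken per length), the 3 nearest the minimum on either side, known from cancer cells, or nearest coding genes of the largest changes; others are said to be chosen after their values were seen. Of the list known from cancer cells, LINC00673 and LINC00346 were not found under these symbols.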

Additional observations from a re-analysis of the deposited data

Results flagged for a closer look

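LINC01686 in NT replicate 4 lay far from the other NT libraries, at a log2 CPM of -2.73, where the others were between -1.18 and -1.10. These log2 values were taken after a prior count of 2 was added, and without it NT replicate 4 had 0.0952 CPM (3 counts). Groups of 4 libraries were examined in this way for the 41 named members, 82 groups in all, of which 1 stood out where chance gives about 4.1.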

How the results depend on the processing

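At an adjusted p under 0.01, 28 members rose and 5 fell, and 1548 and 772 of all genes. Scaled by library totals, 13 members and 2514 genes fell; with the replicate block, which pairs the libraries by date, 21 members and 2946 genes fell, and the block turned none of the 51 calls and added LINC01419, LINC01116 and LINC01686 among the named members. Leaving out 1 library gave 33 to 45 member rises, 7 to 9 member falls, 1880 to 2521 rises and 1110 to 1896 falls of all genes, and a difference of summed CPM of 31.7 to 98.2. Counts of members under the remaining alternatives were within 1.5 times of those given. For the named members, 676 values over alternatives kept direction and side of the threshold, 31 lost the call, 4 gained it and 13 changed sign. The 13 were of 2 members whose change was near 0. LINC00680 was at -0.0476 with upper-quartile factors, -0.0714 with library totals, -0.0025 with no filter on low counts, -0.0757 without the 3 libraries rich in ribosomal RNA, and from -0.0627 to 0.0728 with 1 library left out. LINC00511 was at 0.0496 without the 4th experiment and 0.10 without those 3 libraries, and from -0.19 to 0.16 with 1 library left out. The cause was not tested. No scaling moved the median log2 fold change of all genes by more than 0.083. Depth limits the members under 1 CPM, where a library holds few counts.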
